A study of Vitis labrusca and Vitis cinerea and Vitis acerifolia with 56 samples.

Results

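Of the 29971 grapevine gene models measured, 3 are described here, the genes known from V. vinifera for carrying anthocyanins into the vacuole. They were chosen by identifier: GST4 is VIT_04s0079g00690, AM1 is VIT_16s0050g00930 and AM3 is VIT_16s0050g00910. Values are FPKM, which divide fragments by both the transcript's length and the library's total, so levels can be set beside each other between genes on the FPKM scale. All 3 genes were followed through 56 libraries of berry RNA.

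Anthocyanins, the red and blue pigments of grape skin, are made in the cytoplasm and stored in the vacuole. GST4 encodes a glutathione S-transferase that binds the pigment and is needed for it to reach the vacuole, and AM1 and AM3 encode MATE-type carriers of the vacuolar membrane, called anthoMATE1 and anthoMATE3, described in V. vinifera as carriers of acylated anthocyanins. The pigment itself is built by DFR and LDOX and glucosylated by UFGT, then methylated by AOMT and acylated by 3AT, and the MYBA regulators switch on UFGT and other late genes at veraison, the onset of ripening. Sunlight is a known cue for this pathway in berry skin.

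The libraries carried the labels V. cinerea (22), V. labrusca (24) and V. acerifolia (10). Clusters grew inside boxes covered with foil, which were removed at pre-veraison, were removed at veraison or stayed on to maturity, or in sunlight throughout. Berries were taken as young berry, pre-veraison (2 weeks before veraison), veraison, 2 weeks after veraison and mature. Berries still in the box when sampled are called boxed (5 V. cinerea, 6 V. labrusca and 3 V. acerifolia libraries), berries whose box had been removed are called re-exposed (8, 8 and 4), and the others grew in sunlight (7, 8 and 3), while 4 young berry libraries carried no treatment entry. The V. labrusca libraries are described in their cultivar entry as a hybrid between V. vinifera and V. labrusca, V. cinerea as a native American grape and V. acerifolia as a wild species. The 35 groups of species, stage and treatment held 2 libraries (21 groups) or 1 (14 groups). The labels do not say whether libraries of a group came from separate vines, so p-values measure only the spread between these libraries, which may be technical. In the fit averaged over stages, that spread also holds boxed or re-exposed minus sunlight differences that vary between stages, in all 3 species. In whole berry tissue, fewer cells of a type and less RNA per cell cannot be told apart. The tissue label was not checked against markers.

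Several libraries stood apart. Species-private genes were defined in the 25 libraries taken up to veraison, as genes whose lowest value in 1 species lay at least 1 log2 unit above their highest value in the other species (13 for V. cinerea, 22 for V. labrusca and 271 for V. acerifolia). Each of those 25 libraries held the largest share of the private genes of its own label, redefined without that library. Of the 31 later libraries, scored on the genes just defined, 9 held a larger share of another label's private genes. In the V. cinerea set these were mature sunlight replicate 1, both libraries uncovered at pre-veraison and 1 uncovered at veraison, these 3 taken 2 weeks after veraison. In the V. labrusca set they were mature sunlight replicate 2 and mature replicate 2 uncovered at pre-veraison, and in the V. acerifolia set the mature sunlight library and both mature uncovered libraries. V. cinerea mature sunlight replicate 1 held 77.3% of the V. labrusca private genes and 7.69% of its own. These V. labrusca libraries held 46.2 and 69.2% of the V. cinerea private genes and 4.55 and 0% of their own. These V. acerifolia libraries held 100, 76.9 and 84.6% of the V. cinerea private genes and 0.738 to 1.11% of their own. Groups are named by their labels throughout. Matching was a matter of degree: the mature V. cinerea libraries held 23.1% (uncovered at pre-veraison), 30.8 and 38.5% (uncovered at veraison) and 84.6% (both never uncovered) of the V. cinerea private genes, against 38.5% in sunlight replicate 2 and 7.69% in sunlight replicate 1. The mature never uncovered V. acerifolia library held 21.4% of the V. acerifolia private genes, close to the 19.9 to 22.9% of the 3 V. cinerea libraries above, while the other V. acerifolia libraries counted as matching held 82.7 to 98.7%. Total FPKM per library lay between 764972 and 1.88e+06, and read depth is unknown. In 3 V. labrusca libraries (young berry replicate 1, veraison sunlight replicate 1 and, 2 weeks after veraison, replicate 1 uncovered at pre-veraison) low values were missing, their lowest 1% of values of at least 0.001 FPKM ending at 1.07 to 1.18 FPKM, against at most 0.214 FPKM in the others.

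GST4 was among the most abundant transcripts of ripe berries and low in unripe ones. In the 31 libraries taken after veraison or at maturity it lay between 457 and 4286 FPKM, ranking within the first 100 genes in 24 of 31 libraries, and in the 13 young and pre-veraison libraries between 0 and 76.5 FPKM. AM3 followed the same course at a lower level, between 55.3 and 669 FPKM in the 31 late libraries and between 3.53 and 41.3 FPKM in the 13 early ones. AM1 lay between 55.0 and 435 FPKM in the late libraries and was already present in the early ones, between 14.3 and 138 FPKM. The ratio of AM3 to AM1 was above 1 in 27 of the 31 late libraries (from 0.750 to 5.44) and below 1 in all 13 early ones (from 0.0610 to 0.993). The order of the 2 carriers in FPKM thus differed between most ripe and all unripe libraries.

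**Figure D1:**
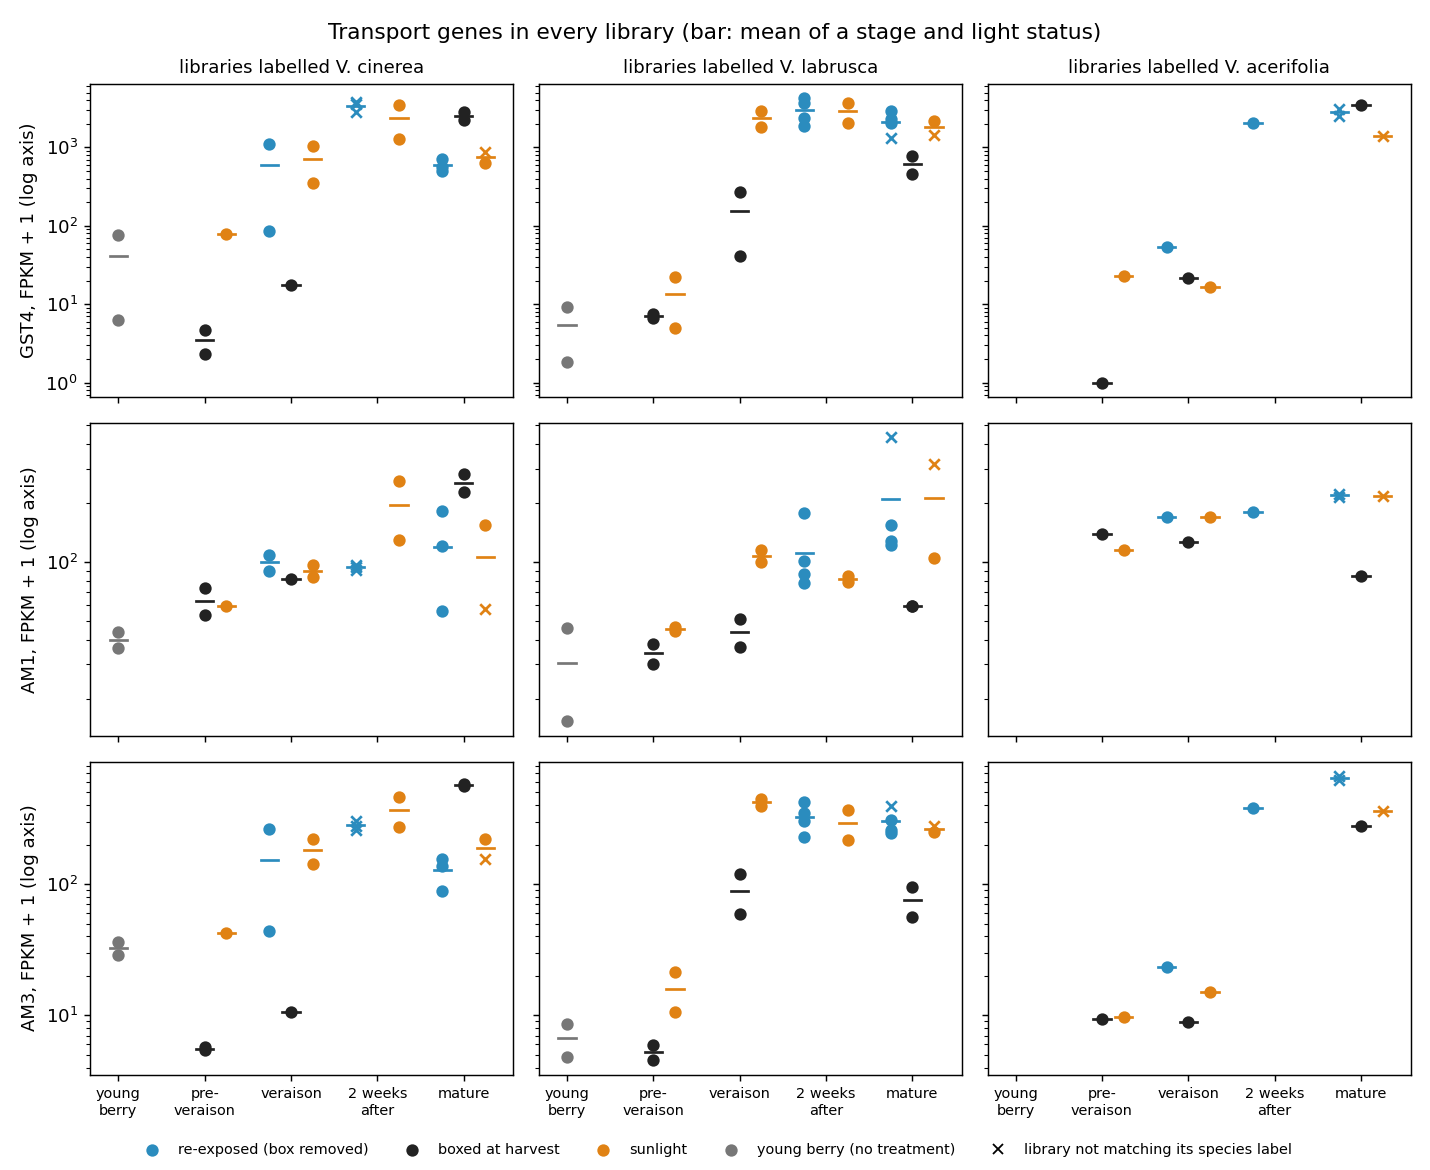
FPKM plus 1 on a log axis (rows: GST4, AM1, AM3) in every library by stage, for the 3 species labels, with re-exposed libraries in blue, boxed in black, sunlight in orange and young berries in grey. Short bars mark the mean of a stage and light status, and crosses mark the 9 libraries that do not match their species label. GST4 and AM3 lie higher in every library taken after veraison or at maturity than in any young or pre-veraison one. AM1 values of these stages overlap, within 14.3 to 435 FPKM. In V. cinerea sunlight berries the log2 difference, mature minus pre-veraison, is 3.25 for GST4 (not past the threshold) and 2.14 for AM3. The mature boxed libraries lie above the sunlight ones in V. cinerea and below them in V. labrusca, an order not counted over all genes.

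In V. cinerea, GST4 started at 75.5 and 5.20 FPKM in the 2 young berry libraries. At pre-veraison it had 3.62 and 1.29 FPKM in boxed berries, against 76.5 FPKM in the single sunlight library. At veraison it had 85.0 and 1109 FPKM in berries uncovered at pre-veraison and 16.8 FPKM in the single boxed library, against 354 and 1047 FPKM in sunlight. All 3 boxed libraries up to veraison were thus below every sunlight library of their stage, an order not counted over all genes. At 2 weeks after veraison the 3 re-exposed libraries, none matching their label, had 3538, 2797 and 3798 FPKM, against 1275 and 3446 FPKM in sunlight. At maturity the order was turned round: GST4 had 505 FPKM uncovered at pre-veraison, 718 and 566 FPKM uncovered at veraison and 2219.6 and 2824 FPKM never uncovered, against 869 and 625 FPKM in sunlight. Both never uncovered libraries lay above all 5 others of that stage, and they also held far more of the V. cinerea private genes than those 5 (84.6% against 7.69 to 38.5%). That separation was not counted over all genes either.

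AM3 went the same way in V. cinerea. It had 35.0 and 28.0 FPKM in young berries, and at pre-veraison 4.70 and 4.42 FPKM in boxed berries, against 41.3 FPKM in sunlight. At veraison it had 43.0 and 261 FPKM in re-exposed berries and 9.60 FPKM in the boxed library, against 142 and 218 FPKM in sunlight. As for GST4, 1 of the 2 re-exposed veraison libraries lay near the pre-veraison sunlight level and the other above both veraison sunlight libraries. By 2 weeks after veraison AM3 had 277, 259 and 302 FPKM in re-exposed berries, against 270.1 and 464 FPKM in sunlight. At maturity it had 88.4 FPKM uncovered at pre-veraison, 137 and 154 FPKM uncovered at veraison and 583 and 560.5 FPKM never uncovered, against 156 and 220.4 FPKM in sunlight. The never uncovered pair was close together and apart from the other 5 libraries, which was not counted over all genes.

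AM1 moved less in V. cinerea. It had 35.3 and 42.6 FPKM in young berries, 72.5 and 52.4 FPKM in boxed and 58.3 FPKM in sunlight berries at pre-veraison, and between 81.0 and 108 FPKM in all 5 veraison libraries. Boxed and sunlight libraries overlapped at pre-veraison, and at veraison the boxed library (81.0 FPKM) lay just under both sunlight libraries (82.8 and 95.9 FPKM). At 2 weeks after veraison it had 95.6, 89.5 and 93.5 FPKM in re-exposed berries, against 258 and 129 FPKM in sunlight. At maturity it had 55.0 FPKM uncovered at pre-veraison, 182 and 119.7 FPKM uncovered at veraison and 227 and 279 FPKM never uncovered, against 56.2 and 154 FPKM in sunlight. The never uncovered pair was again on top, an order not counted over all genes.

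In V. labrusca, GST4 had 8.15 and 0.816 FPKM in young berries and, at pre-veraison, 5.62 and 6.54 FPKM in boxed berries, against 21.0 and 3.95 FPKM in sunlight, where the groups overlapped. At veraison it had 266 and 40.0 FPKM in boxed berries, against 1796 and 2913 FPKM in sunlight. These groups were well apart, a separation whose share over all genes was not counted. At 2 weeks after veraison it had 1870.2 and 3667 FPKM uncovered at pre-veraison and 2341 and 4286 FPKM uncovered at veraison, against 2067 and 3679 FPKM in sunlight, all overlapping. At maturity it had 2066 and 1316 FPKM uncovered at pre-veraison, 2881 and 2284 FPKM uncovered at veraison and 457 and 781 FPKM never uncovered, against 2149 and 1456 FPKM in sunlight. Both never uncovered libraries lay below all 6 others, the reverse of their place in V. cinerea. Replicate 2 of sunlight and of those uncovered at pre-veraison do not match their label. The separation was not counted over all genes, and in V. cinerea private gene shares differed with it, as given above. The GST4 species differences tested below did not pass (limma, adjusted p = 0.292 for boxed minus sunlight and 0.114 for uncovering). The labelled anthocyanin concentration (given without a unit in the labels) was 0 in both never uncovered V. labrusca libraries, in which GST4 ranked 285 and 112 among all genes.

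AM3 in V. labrusca had 3.82 and 7.55 FPKM in young berries and, at pre-veraison, 4.96 and 3.53 FPKM in boxed berries, against 20.2 and 9.54 FPKM in sunlight. At veraison it had 119 and 58.0 FPKM in boxed berries, against 443 and 395 FPKM in sunlight. The groups did not overlap at either stage, a separation whose share over all genes was not counted. Then, 2 weeks after veraison, it lay between 227 and 419.5 FPKM in the 4 re-exposed libraries (median 326), against 216 and 366 FPKM in sunlight. At maturity it had 259 and 394 FPKM uncovered at pre-veraison, 309.7 and 245 FPKM uncovered at veraison and 55.3 and 94.5 FPKM never uncovered, against 249 and 276 FPKM in sunlight. Both never uncovered libraries again lay below the other 6, which was not counted over all genes.

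AM1 in V. labrusca had 14.3 and 44.9 FPKM in young berries, 37.2 and 29.0 FPKM in boxed berries against 43.4 and 45.5 FPKM in sunlight at pre-veraison, and 35.7 and 50.0 FPKM in boxed berries against 114 and 99.4 FPKM in sunlight at veraison. Boxed lay below sunlight at both stages without overlap, a separation whose share over all genes was not counted. At 2 weeks after veraison it lay between 77.1 and 178 FPKM in all 6 libraries, with the highest of these a library lacking low values, and at maturity it had 121 and 435 FPKM uncovered at pre-veraison, 153 and 127 FPKM uncovered at veraison and 58.8 and 58.6 FPKM never uncovered, against 104 and 317 FPKM in sunlight. The 2 highest AM1 values of the whole series, 435 and 317 FPKM, were those of the 2 mature V. labrusca libraries that do not match their label, and the 4 matching libraries in the light had 104 to 153 FPKM.

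In V. acerifolia, with 1 library a group, GST4 was listed at 0 in the boxed library at pre-veraison, against 21.9 FPKM in sunlight. At veraison it had 52.7 FPKM in the re-exposed and 20.5 FPKM in the boxed library, against 15.7 FPKM in sunlight. The 3 veraison libraries thus stayed below any V. cinerea or V. labrusca sunlight library of that stage. At 2 weeks after veraison the only library, uncovered at veraison, had 2044 FPKM, and at maturity GST4 had 3091 and 2541 FPKM in the uncovered libraries and 3425 FPKM in the never uncovered one, against 1387 FPKM in sunlight. The never uncovered library, which held 21.4% of the V. acerifolia, 13.6% of the V. labrusca and 7.69% of the V. cinerea private genes, had the highest value of the 4.

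AM3 in V. acerifolia had 8.40 FPKM boxed and 8.69 FPKM in sunlight at pre-veraison, and at veraison 22.6 FPKM re-exposed and 7.84 FPKM boxed, against 14.1 FPKM in sunlight. After veraison it had 378 FPKM, and at maturity 669 and 617 FPKM uncovered and 279 FPKM never uncovered, against 357 FPKM in sunlight. In contrast to GST4, the never uncovered library held the lowest AM3 value of the 4 mature ones. AM1 was between 83.8 and 221 FPKM in all 10 libraries, with its lowest value in the mature never uncovered one. No test was made within V. acerifolia, where 3 of the 4 mature libraries do not match their label and no group holds a replicate.

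Whether berries still in the box differed from sunlight berries in their transport genes was asked first over the stages pre-veraison, veraison and mature together, with limma on log2(FPKM + 1) and p-values adjusted over all genes (Benjamini-Hochberg, threshold 0.05). In V. cinerea none of the 3 genes passed, where 0.36% of 20252 genes passed. GST4 gave log2 difference -1.62, SE 0.86, adjusted p = 0.359, with a 95% interval of -3.36 to 0.12, AM1 gave log2 difference 0.48, SE 0.36, adjusted p = 0.551, and AM3 gave log2 difference -1.08, SE 0.54, adjusted p = 0.320. Without the single veraison boxed library GST4 was at -0.39 and AM3 at 0.0489, without mature boxed replicate 2 GST4 was at -2.47, and AM1 ranged over 0.21 to 0.79 with 1 library left out. In V. labrusca 2 of the 3 genes fell in boxed berries, where 6.31% of genes passed: AM3 (log2 difference -1.89, SE 0.47, adjusted p = 0.0125) and AM1 (log2 difference -1.10, SE 0.32, adjusted p = 0.0312), while GST4 gave log2 difference -2.17, SE 0.76, adjusted p = 0.0765 and passed only without pre-veraison sunlight replicate 2 (adjusted p = 0.0348) or in a fit of V. labrusca alone (adjusted p = 0.0209). The AM3 call was lost without the 2 veraison libraries whose stage entry conflicts with their title (adjusted p = 0.0583). The AM1 call was lost in 6 of 14 fits leaving out 1 library (either boxed library of veraison or of maturity, veraison sunlight replicate 1 or mature sunlight replicate 2), with adjusted p up to 0.0980 and log2 differences of -1.22 to -0.92, and also without the libraries lacking low values (adjusted p = 0.0548) or those of conflicting stage (adjusted p = 0.0724). Of 8 other genes of the pathway (the regulators MYBA1, MYBA2 and MYBA3 and the enzymes DFR, LDOX, UFGT, AOMT and 3AT), 0 passed in V. cinerea (median log2 difference -0.49 over the 8, against 0.10 over all genes tested) and 4 fell in V. labrusca (median log2 difference -2.26 over the 8, against 0.12 over all genes tested). Median-ratio scaling of the libraries moved the median gene by at most 0.18 on the log2 scale in any comparison reported here, and every call of the 3 genes kept its direction under it.

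The difference between the species in this stage-averaged contrast passed for none of the 3 genes, and 0% of genes passed (1646 of 20252 had an unadjusted p under 0.05). The V. cinerea minus V. labrusca difference was 0.56 for GST4 (95% interval -1.77 to 2.88), 1.58 for AM1 (95% interval 0.60 to 2.55, adjusted p = 0.346) and 0.81 for AM3 (95% interval -0.64 to 2.26). The GST4 difference changed sign without either mature boxed V. cinerea library (-0.17 and -0.29) or without V. labrusca veraison boxed replicate 2 (-0.0237).

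The values of V. cinerea had opposite signs between stages, so the contrast was also taken by stage and at maturity alone, comparisons added after the values had been seen. Boxed minus sunlight for GST4 in V. cinerea was -4.58 at pre-veraison, -5.10 at veraison and 1.76 at maturity on the log2 scale, and for AM3 it was -2.93, -4.06 and 1.62. The mature contrast exceeded the mean of the earlier 2 by 6.60 for GST4 (SE 1.41, adjusted p = 0.00583) and by 5.11 for AM3 (SE 0.71, adjusted p = 3.72e-04), so that 2 of 3 members passed where 5.77% of 20333 genes did. AM1 gave log2 difference 1.45, SE 0.73, adjusted p = 0.277. Among the 8 pathway genes 7 passed in the same direction (median log2 difference 5.17 over the 8, against 0.0847 over all genes tested), and the pre-veraison sunlight and veraison boxed groups behind these values held 1 library each, taken to vary like the other groups. With veraison as the only earlier stage, without the lone pre-veraison sunlight library, the values were 6.86 for GST4 (adjusted p = 0.0355) and 5.68 for AM3. With pre-veraison alone, without the lone veraison boxed library, they were 6.34 and 4.55. The mature boxed libraries held 84.6% of the V. cinerea private genes, against 7.69 and 38.5% in the mature sunlight ones, and the part of this was not tested. In V. labrusca the same contrast of contrasts gave 0.94 for GST4, -0.75 for AM1 and 0.0761 for AM3, none passing (adjusted p of 0.766 or more), where 0.0443% of genes passed. By stage, boxed minus sunlight in V. labrusca was -0.56, -4.45 and -1.56 for GST4 and -1.53, -2.32 and -1.85 for AM3.

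**Figure D2:**
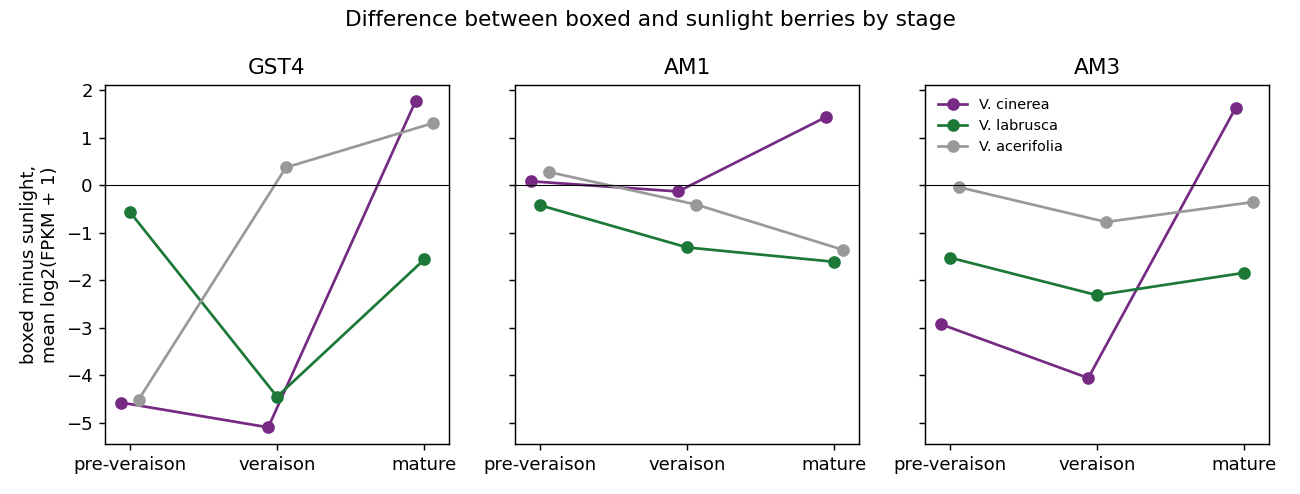
Boxed minus sunlight difference of mean log2(FPKM + 1) at pre-veraison, veraison and maturity for GST4, AM1 and AM3, 1 line per species label (points rest on 1 or 2 libraries a group, with no error bar). In V. cinerea GST4 and AM3 lie below zero at the first 2 stages and above it at maturity, in V. labrusca all 9 points lie below zero, and each V. acerifolia point sets 1 library against 1.

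At maturity alone, boxed minus sunlight was 1.76 for GST4, 1.43 for AM1 and 1.62 for AM3 in V. cinerea. None passed (adjusted p = 0.338, 0.104 and 0.0568), where 10% of genes did. Boxed libraries lay above sunlight ones for all 3 genes, a separation whose share over all genes was not counted. AM1 passed without mature sunlight replicate 2 (adjusted p = 0.0383), which leaves the sunlight library that does not match its label. In V. labrusca the values were -1.56 for GST4, -1.61 for AM1 and -1.85 for AM3, of which AM3 passed (adjusted p = 0.0499), where 4.42% of genes did. That AM3 call was lost with any of the 4 libraries left out (adjusted p = 0.0704 to 0.298) and under 5 other alternatives, among them a pseudocount of 0.1 and no filter (adjusted p up to 0.247). AM1 passed without mature sunlight replicate 1 (adjusted p = 0.0189), which leaves the sunlight library that does not match its label. The V. cinerea minus V. labrusca difference of these contrasts was 3.47 for AM3 (SE 0.76, adjusted p = 0.0255), 3.04 for AM1 (adjusted p = 0.0502) and 3.33 for GST4 (adjusted p = 0.292), where 1.29% of genes passed. The AM3 call was lost without the libraries that do not match their label (3.14, adjusted p = 0.173) and in 5 of 8 fits leaving out 1 library (either mature boxed V. cinerea library, V. cinerea sunlight replicate 1, V. labrusca boxed replicate 1 or V. labrusca sunlight replicate 2; adjusted p up to 0.141). AM1 passed without V. cinerea sunlight replicate 2 (adjusted p = 0.0161) or V. labrusca sunlight replicate 1 (adjusted p = 0.00803). Of the 8 pathway genes at maturity 4 rose in boxed V. cinerea (median log2 difference 1.96 over the 8, against 0.14 over all genes tested), UFGT among them (log2 difference 4.06, SE 1.09, adjusted p = 0.0182), and 2 fell in boxed V. labrusca (median log2 difference -2.01 over the 8, against 0.0971 over all genes tested).

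Mature berries uncovered at pre-veraison or veraison were then set against mature berries never uncovered, the same never uncovered libraries as above. In V. cinerea AM3 fell in uncovered berries (log2 difference -2.33, SE 0.50, adjusted p = 0.00271), 1 of 3 members, where 16.6% of genes passed. GST4 gave log2 difference -2.14, SE 0.996, adjusted p = 0.151 and AM1 log2 difference -1.47, SE 0.52, adjusted p = 0.0518. For each of the genes all 3 uncovered libraries lay below both never uncovered ones, a separation not counted over all genes. Of the 8 pathway genes 7 fell (median log2 difference -3.05 over the 8, against -0.11 over all genes tested), among them UFGT (log2 difference -4.56, SE 1.02, adjusted p = 0.00336) and MYBA1 (log2 difference -2.04, SE 0.57, adjusted p = 0.0154). Other measures moved with this contrast: the uncovered libraries held 23.1 to 38.5% of the V. cinerea private genes, against 84.6% in both never uncovered ones, the labelled anthocyanin concentration was 5.31 to 5.98 in the uncovered libraries and 1.085 and 1.973 in the never uncovered ones, and the 10 most abundant genes held 35.8 to 37.3% of all FPKM in the uncovered and 18.3 to 19.9% in the never uncovered libraries. After median-ratio scaling, AM3 was at -2.14 (adjusted p = 0.00462), and the part of these measures in the result was not tested. Without the single library uncovered at pre-veraison AM3 was at -1.97 and AM1 at -0.77 (adjusted p = 0.417). AM1 passed in the fit without the libraries that do not match their label (adjusted p = 0.00925), which keeps these 5 libraries in the contrast whatever their share of private genes.

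In V. labrusca the same contrast ran the other way. AM3 rose in uncovered berries (log2 difference 2.02, SE 0.47, adjusted p = 0.0107), as did AM1 (log2 difference 1.59, SE 0.48, adjusted p = 0.0499), 2 of 3 members, where 5.47% of genes passed, and GST4 gave log2 difference 1.78, SE 0.92, adjusted p = 0.310. All 4 uncovered libraries lay above both never uncovered ones for each of the 3 genes, a separation not counted over all genes. The AM3 call was lost without never uncovered replicate 1 (log2 difference 1.64, adjusted p = 0.192). AM1, just inside the threshold, was lost in 5 of 6 fits leaving out 1 library, all but that without replicate 1 uncovered at pre-veraison (adjusted p up to 0.239), and without the libraries that do not match their label it was at 1.13 (adjusted p = 0.0790). A pseudocount of 0.1 (adjusted p = 0.0581) or no filter (adjusted p = 0.0622) also ended that call. Of the 8 pathway genes 3 rose (median log2 difference 1.90 over the 8, against -0.15 over all genes tested). Labelled concentrations were 1.55 to 2.30 in the uncovered libraries and 0 in the never uncovered ones, and the 10 most abundant genes held 21.4 to 40.8% of FPKM in the uncovered and 9.38 to 10.9% in the never uncovered libraries, whose part was not tested. The V. cinerea minus V. labrusca difference of the contrasts, a comparison added after the values had been seen, was -4.35 for AM3 (SE 0.69, adjusted p = 0.00145), -3.06 for AM1 (SE 0.70, adjusted p = 0.0177) and -3.92 for GST4 (adjusted p = 0.114), where 2.81% of genes passed. The AM1 difference lost its call without any 1 of the 4 never uncovered libraries or without the single V. cinerea library uncovered at pre-veraison (adjusted p up to 0.103), and the AM3 difference kept adjusted p at or below 0.0131 with each library left out.

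**Figure D3:**
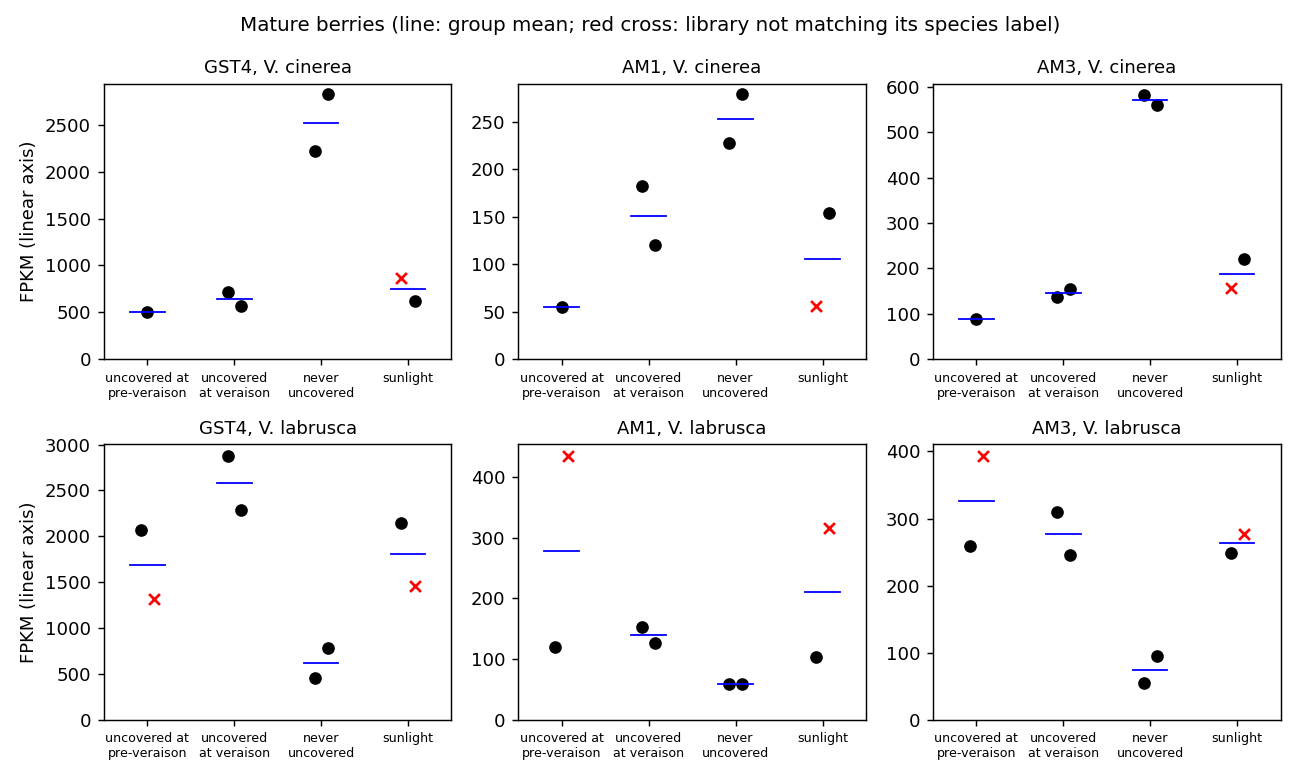
FPKM on linear axes from 0 in mature berries of V. cinerea (top) and V. labrusca (bottom), by light history, with 1 point per library, a blue line at the group mean and red crosses for libraries that do not match their species label. In V. cinerea the never uncovered pair stands above all other libraries for GST4, AM1 and AM3, and in V. labrusca it stands below them. Such separations were not counted over all genes. The never uncovered V. cinerea pair held 84.6% of that species' private genes, against 7.69 to 38.5% in the other V. cinerea libraries shown.

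Between the species, mature never uncovered berries had more AM3 in V. cinerea than in V. labrusca (583 and 560.5 FPKM against 55.3 and 94.5 FPKM; log2 difference 2.96, SE 0.54, adjusted p = 0.00182) and more AM1 (227 and 279 FPKM against 58.8 and 58.6 FPKM; log2 difference 2.08, SE 0.55, adjusted p = 0.0193), 2 of 3 members, where 8.81% of genes passed. GST4 had 2219.6 and 2824 FPKM in V. cinerea against 457 and 781 FPKM in V. labrusca, and gave log2 difference 2.07, SE 1.07, adjusted p = 0.245. Its groups did not overlap, which was not counted over all genes. The AM1 call was lost without any 1 of the 4 libraries (adjusted p = 0.0874 to 0.146). All 4 libraries held most private genes of their label (84.6% in V. cinerea, 86.4 and 90.9% in V. labrusca). UFGT was at log2 difference 5.02, SE 1.09, adjusted p = 0.00595, and 5 of the 8 pathway genes were higher in V. cinerea (median log2 difference 3.14 over the 8, against 4.15e-06 over all genes tested). The species label and differences in how reads of each species map to the grapevine gene models cannot be told apart here.

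Ripening was compared within each light condition, mature against pre-veraison. In V. cinerea that stayed in the box all 3 genes rose, where 5.37% of genes passed: GST4 (log2 difference 9.59, SE 1.07, adjusted p = 5.58e-06), AM3 (log2 difference 6.69, SE 0.54, adjusted p = 9.66e-08) and AM1 (log2 difference 2.01, SE 0.55, adjusted p = 0.0307). The AM1 call was lost without any 1 of the 4 libraries (adjusted p up to 0.221). In V. cinerea sunlight berries, with 1 pre-veraison library that was taken to vary like the other groups and could not be left out, AM3 rose (log2 difference 2.14, SE 0.66, adjusted p = 0.0249), 1 of 3 members, where 18.6% of genes passed, while GST4 gave log2 difference 3.25, SE 1.30, adjusted p = 0.0845 and AM1 log2 difference 0.66, SE 0.68, adjusted p = 0.567. The AM3 call was lost in a fit of V. cinerea alone (adjusted p = 0.0614) and without mature sunlight replicate 2 (adjusted p = 0.0989), which leaves the mature sunlight library that does not match its label, and the AM1 value was -0.0526 without it. Of the 8 pathway genes 7 rose in boxed V. cinerea (median log2 difference 5.99 over the 8, against -0.0874 over all genes tested) and 2 in sunlight V. cinerea (median log2 difference 1.99 over the 8, against -0.17 over all genes tested). These contrasts use the same libraries as those by stage above.

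In V. labrusca kept in the box, GST4 rose (log2 difference 6.40, SE 1.07, adjusted p = 8.90e-04) and AM3 rose (log2 difference 3.82, SE 0.54, adjusted p = 1.55e-04), 2 of 3 members, where 2.4% of genes passed, and AM1 gave log2 difference 0.82, SE 0.55, adjusted p = 0.605. In sunlight all 3 rose, where 19.2% of genes passed: GST4 (log2 difference 7.41, SE 1.07, adjusted p = 3.34e-05), AM3 (log2 difference 4.14, SE 0.54, adjusted p = 1.24e-05) and AM1 (log2 difference 2.01, SE 0.55, adjusted p = 0.0117). AM1 in sunlight was not past the threshold without either pre-veraison sunlight library or without mature sunlight replicate 2 (adjusted p up to 0.260). Without the last, which does not match its label, the log2 difference was 1.21, and without mature sunlight replicate 1 it was 2.81. Of the 8 pathway genes 5 rose in boxed V. labrusca (median log2 difference 3.06 over the 8, against -0.0735 over all genes tested) and 8 in sunlight V. labrusca (median log2 difference 3.64 over the 8, against -0.21 over all genes tested). GST4 and AM3 therefore rose with ripening in V. labrusca berries that stayed in the box, and their mature boxed levels stayed under the mature sunlight ones.

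None of the 3 genes passed between re-exposed and sunlight berries. These contrasts hold libraries that do not match their label. In V. cinerea they are all re-exposed libraries 2 weeks after veraison and mature sunlight replicate 1. In V. labrusca they are mature sunlight replicate 2 and mature replicate 2 uncovered at pre-veraison. Re-exposed minus sunlight, averaged over stages, was -0.59 for GST4 (95% interval -2.05 to 0.87), -0.30 for AM1 (-0.91 to 0.31) and -0.83 for AM3 (-1.74 to 0.0843) in V. cinerea (adjusted p of 0.494 or more), where 0.0198% of genes passed. In V. labrusca it was -0.0269 for GST4 (95% interval -1.61 to 1.55), 0.28 for AM1 (-0.38 to 0.95) and 0.16 for AM3 (-0.83 to 1.15), each at an adjusted p of 1, and 0% of genes passed by limma (278 had an unadjusted p under 0.05). The intervals still allow GST4 differences of over 1 on the log2 scale in either direction in V. labrusca. None of the 8 pathway genes passed in V. cinerea (median log2 difference -1.29 over the 8, against -0.0282 over all genes tested) or in V. labrusca (median log2 difference 0.0611 over the 8, against -0.0589 over all genes tested).

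GST4 and AM3 varied more closely with each other than either did with AM1. Over the 22 V. cinerea, 24 V. labrusca and 10 V. acerifolia libraries, Pearson's r of log2(FPKM + 1) between GST4 and AM3 was 0.96, 0.96 and 0.95. Between GST4 and AM1 it was 0.60, 0.70 and 0.30, and between AM1 and AM3 0.65, 0.78 and 0.46. In V. acerifolia both values with AM1 changed sign without the 3 libraries that do not match their label (-0.23 with GST4 and -0.11 with AM3). These points share stage and library total, so they are given as a description.

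Over all 56 libraries and all genes with at least 1 FPKM in at least 2 of them, the genes most like GST4 were AM3 (r = 0.96), the glucosyltransferase UFGT (0.94), the regulator MYBA2 (0.93) and VIT_05s0049g00510 (0.93). For AM3 they were the regulator MYBA1 (0.96), GST4 (0.96), UFGT (0.95) and MYBA2 (0.95). AM1 had other neighbours in this order, VIT_02s0025g02390 (0.81), VIT_14s0006g01530 (0.80), VIT_19s0014g02190 (0.79) and VIT_01s0026g00220 (0.78), with AM3 only in place 367 (r = 0.59).

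Of the gene models with neighbouring identifiers, VIT_16s0050g00950 varied most like GST4 and AM3. Next to AM1 and AM3, VIT_16s0050g00900 had 4.14 to 79.7 FPKM (r with AM3 0.0175, with AM1 0.50), VIT_16s0050g00880 had 53.9 to 234 FPKM (r with AM3 -0.53), VIT_16s0050g00960 had 4.42 to 40.7 FPKM (r with AM3 -0.51) and VIT_16s0050g00950 had 38.8 to 415 FPKM (r with GST4 0.78, with AM3 0.75). VIT_16s0050g00920, between the carriers by number, was above 0 in 1 library, and VIT_16s0050g00890 was listed at 0 throughout. Next to GST4, VIT_04s0079g00680 had 0.961 to 85.5 FPKM with an r of -0.64 with GST4, VIT_04s0079g00670 and VIT_04s0079g00660 reached 47.4 and 48.8 FPKM with r of -0.38 and -0.11, VIT_04s0079g00700 and VIT_04s0079g00710 were above 0 in 1 library each, and VIT_04s0079g00720 was listed at 0. Reads of near-identical copies could be split between AM1, AM3 and any related neighbour, so their levels are uncertain to that extent.

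**Figure D4:**
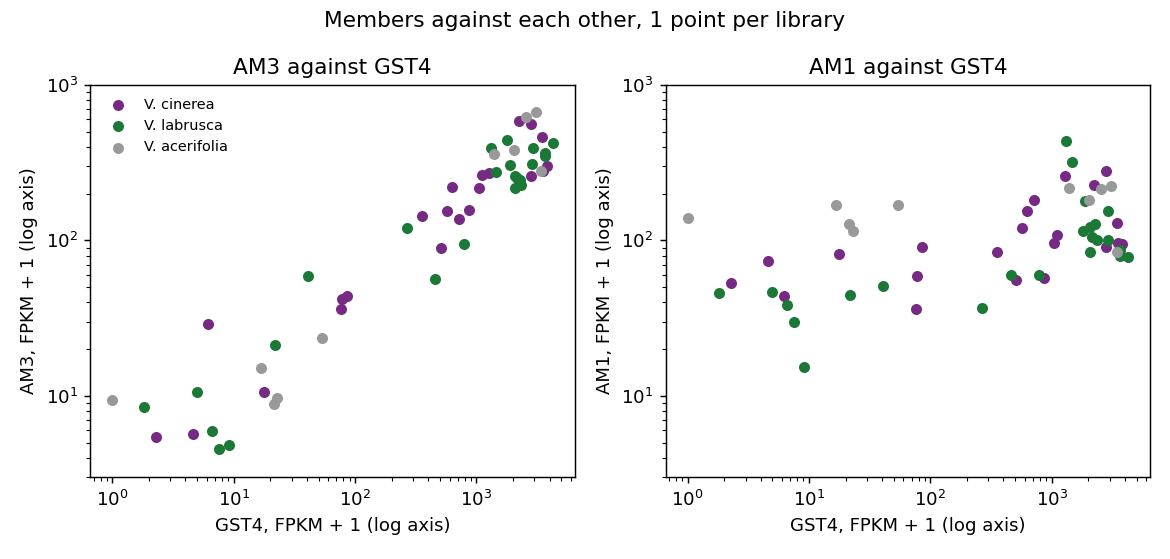
AM3 (left) and AM1 (right) against GST4, each as FPKM plus 1 on log axes, 1 point per library, coloured by species label. AM3 is low where GST4 is low and high where GST4 is high in all 3 species, but not step by step. In boxed V. acerifolia up to veraison, GST4 of 0 and 20.5 FPKM goes with AM3 of 8.40 and 7.84 FPKM. The highest mature GST4 value of V. acerifolia (3425 FPKM) goes with its lowest mature AM3 value (279 FPKM). Over all libraries AM1 lies within 14.3 to 435 FPKM, a narrower range than the 3.53 to 669 FPKM of AM3.

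The labelled anthocyanin concentrations fell into clusters, so relations were taken within them. For V. cinerea these were added after the values had been seen, in place of the planned pooled relation. The 5 mature V. cinerea libraries at 5.22 to 6.968 were too few for a relation and had lower values than the 2 mature libraries at 1.085 and 1.973: 505 to 869 FPKM for GST4, 55.0 to 182 FPKM for AM1 and 88.4 to 220.4 FPKM for AM3. These 5 were in the light at harvest, while the other 2 were never uncovered. They also held 7.69 to 38.5% of the V. cinerea private genes, against 84.6% in the other 2. The part of light and of these shares was not tested. In the 11 V. cinerea libraries at 0 to 0.2, 6 of them at 0, Spearman's rho with log2(FPKM + 1) was 0.77 for GST4, 0.80 for AM1 and 0.77 for AM3 (permutation, two-sided, adjusted p = 0.0183 each over 6 relations), while Pearson's r was 0.45, 0.57 and 0.45 and did not pass (permutation, adjusted p = 0.334 each). Without the 2 libraries farthest from the median concentration r was 0.70, 0.56 and 0.70. Without the 1 library that does not match its label rho was 0.79, 0.82 and 0.79. All 6 libraries at 0 were young, pre-veraison or boxed veraison berries, so stage and light move with the relation, and their part was not tested.

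In the 6 V. cinerea libraries at 0.826 to 1.973 (2 not matching their label), r was 0.45 for GST4, 0.22 for AM1 and 0.54 for AM3 and rho 0.49, -0.0857 and 0.0286, none passing (exact permutation, lowest adjusted p = 0.371). Without the 2 farthest libraries r was 0.44, -0.66 and -0.51. In the 12 V. labrusca libraries above 1 (1.269 to 2.39, all taken after veraison), r was -0.33 for GST4, 0.57 for AM1 and 0.28 for AM3, and rho -0.37, 0.46 and 0.21, none passing (permutation, adjusted p of 0.0753 or more for r and 0.205 or more for rho, over 6 planned relations). Those 6 include the pooled V. cinerea relations, which are not given here and lower these adjusted values. The unadjusted permutation p of r for AM1 was 0.0502. Without the 2 farthest V. labrusca libraries r was -0.51, 0.72 and 0.29. Without the 2 libraries that do not match their label r was 0.19, 0.0452 and 0.20, so the AM1 relation did not hold without those 2.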

How the data were processed

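Berry RNA was measured by RNA-seq in 56 libraries, grouped by the species, stage and treatment in their titles. The authors deposited 1 table of FPKM values per gene, and TopHat2 2.0.14 and Cufflinks 2.2.1 are named in the submitters' processing notes. For the genome build, the sources used here give no name. The table pairs no gene names with its identifiers, so names come from the literature on V. vinifera and were not checked, and no member sequence or gene family description was used here. FPKM hold no read counts, so depth is unknown and no counting intervals are given. No column was left unused, and no pair of libraries was identical.

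FPKM were put on the log2(FPKM + 1) scale and fitted with limma 3.58.1 (R 4.3.3, trend in the variance), keeping genes with at least 1 FPKM in at least 2 libraries of a fit. Stage-averaged contrasts came from 1 fit of 51 libraries with terms for species by stage and for light status within species (20252 genes), and all others from a fit of 46 V. cinerea and V. labrusca libraries with 1 term per group (20333 genes). A log2 difference on this scale understates the change of low genes. Adjusted p-values are Benjamini-Hochberg over all genes of the fit, two-sided, with a threshold of 0.05. Concentration relations used 100000 permutations, or the exact permutations below 10 libraries. The planned pooled V. cinerea relation is not reported, since its concentrations fall into clusters. The limma steps were tested on simulated data.

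The members, lists and comparisons were chosen with earlier results of these data known. Named genes were the 3 members, UFGT and MYBA1 of the pathway list, rows neighbouring the members and the 4 genes most like each member. The limit that marks 3 libraries as lacking low values, 1 FPKM for the lowest 1% of values, counts values of at least 0.001 FPKM, a floor adjusted after the data were seen. The description field of V. labrusca libraries gives another species than their titles, and 2 veraison libraries (replicate 2 of sunlight and of boxed) have a stage entry that conflicts with the title used here. Alternatives were a pseudocount of 0.1, no filter, median-ratio scaling, a replicate block, each species alone, and fits without single libraries or without those that do not match their label, lack low values or conflict in stage.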

Additional observations from a re-analysis of the deposited data

Results flagged for a closer look

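The mature boxed minus sunlight difference of AM3 differed between V. cinerea (1.62) and V. labrusca (-1.85), by 3.47 on the log2 scale (limma, adjusted p = 0.0255). The mature uncovered minus never uncovered difference differed between V. cinerea (-2.33 for AM3 and -1.47 for AM1) and V. labrusca (2.02 and 1.59), by -4.35 for AM3 (limma, adjusted p = 0.00145) and -3.06 for AM1 (adjusted p = 0.0177). Both comparisons share the never uncovered libraries. Within V. cinerea the boxed minus sunlight difference at maturity differed from that at the 2 earlier stages by 6.60 for GST4 (limma, adjusted p = 0.00583) and by 5.11 for AM3 (adjusted p = 3.72e-04). All 3 comparisons were added after the values had been seen. In the last, 2 of the earlier groups (pre-veraison sunlight and veraison boxed) held 1 library each, and in all 3 the mature never uncovered V. cinerea libraries held 84.6% of that species' private genes, against 7.69 to 38.5% in the other mature V. cinerea libraries, and the part of this was not tested. Groups held at most 2 libraries, so single outlying libraries were not looked for.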

How the results depend on the processing

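The calls of GST4 and AM3 in mature minus pre-veraison berries of both boxed groups and of sunlight V. labrusca, in the V. cinerea mature minus earlier contrast, and of AM3 in the V. cinerea uncovered contrast, the uncovering difference between species and the never uncovered species contrast kept direction and threshold under every alternative run, including those that leave out a group's only library in the V. cinerea mature minus earlier and uncovered contrasts, added after the data were seen. Leaving out every library with a low share of its own private genes was not run, since no mature V. cinerea library in the light would remain. Over the alternatives other than leaving out 1 library, 388 log2 differences of the 3 genes kept both, 17 lost and 8 gained a call, and 7 changed sign. The 388 include differences not called in the main fit that stayed so, and are not a count of calls that held. FPKM give no depth, and values near 0 rest on unknown numbers of reads. For each change below the cause was not tested, except that fits without some libraries hold fewer samples.

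The labels tie no replicate numbers to a shared vine or day, and same-numbered libraries did not all deviate together: over 36 V. cinerea group pairs the correlation of deviations was -0.108 to 0.424, and over 66 V. labrusca pairs -0.220 to 0.733. With a replicate block AM3 in V. cinerea mature boxed minus sunlight was 1.62 (adjusted p = 0.0471), AM1 in the V. labrusca uncovered contrast 1.59 (adjusted p = 0.0514), and AM1 in the species difference of mature boxed minus sunlight 3.04 (adjusted p = 0.0497). The block changed no other call of the 3 genes.

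With a pseudocount of 0.1, V. labrusca AM3 at maturity, boxed minus sunlight, was -1.86 (adjusted p = 0.0618) and uncovered AM1 1.61 (adjusted p = 0.0581), and with no filter they were -1.85 (adjusted p = 0.0625) and 1.59 (adjusted p = 0.0622). With each species alone, V. cinerea uncovered AM1 was -1.47 (adjusted p = 0.0315), V. cinerea sunlight ripening AM3 2.14 (adjusted p = 0.0614), V. labrusca boxed minus sunlight GST4 -2.17 (adjusted p = 0.0209) and V. labrusca uncovered AM1 1.59 (adjusted p = 0.0909). With median-ratio scaling the AM1 species difference of mature boxed minus sunlight was 3.05 (adjusted p = 0.0484), V. labrusca re-exposed GST4 0.0381 and V. labrusca mature minus earlier AM3 -0.00771. Without libraries that do not match their label, V. cinerea uncovered AM1 was -1.47 (adjusted p = 0.00925), V. labrusca mature boxed minus sunlight AM3 -1.77 (adjusted p = 0.247), uncovered AM1 1.13 (adjusted p = 0.0790), sunlight ripening AM1 1.21 (adjusted p = 0.124), mature minus earlier AM1 0.0492 and the AM3 species difference of mature boxed minus sunlight 3.14 (adjusted p = 0.173). The V. labrusca correlation of GST4 with concentration was then 0.187, and the V. acerifolia correlations of AM1 were -0.107 with AM3 and -0.229 with GST4.

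Without the libraries lacking low values, V. cinerea uncovered AM1 was -1.47 (adjusted p = 0.0329), V. labrusca boxed minus sunlight AM1 -1.09 (adjusted p = 0.0548), mature boxed minus sunlight AM3 -1.85 (adjusted p = 0.0508), re-exposed GST4 0.11 and the AM1 species difference of mature boxed minus sunlight 3.04 (adjusted p = 0.0326). Without the 2 libraries of conflicting stage, V. labrusca boxed minus sunlight was -1.12 (adjusted p = 0.0724) for AM1 and -1.74 (adjusted p = 0.0583) for AM3, mature boxed minus sunlight AM3 -1.85 (adjusted p = 0.0561), uncovered AM1 1.59 (adjusted p = 0.0637), re-exposed GST4 0.19, mature minus earlier AM3 -0.14 and the GST4 species difference of boxed minus sunlight -0.18.

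With each library left out in turn, these log2 differences changed call or sign. In V. cinerea boxed ripening AM1 ranged over 1.78 to 2.24, boxed minus sunlight AM3 -1.72 to 0.0489, mature boxed minus sunlight AM1 0.71 to 2.14, and sunlight ripening AM1 -0.0526 to 1.38 and AM3 1.89 to 2.39. In V. labrusca boxed minus sunlight AM1 ranged over -1.22 to -0.92 and GST4 -2.61 to -1.59, mature boxed minus sunlight AM1 -2.41 to -0.82 and AM3 -2.23 to -1.46, uncovered AM1 1.13 to 2.05 and AM3 1.64 to 2.40, re-exposed GST4 -0.18 to 0.0920, sunlight ripening AM1 1.21 to 2.81, and mature minus earlier AM1 -1.54 to 0.0492 and AM3 -0.30 to 0.46. Between species the never uncovered AM1 difference ranged over 1.93 to 2.23, boxed minus sunlight GST4 -0.29 to 1.78, mature boxed minus sunlight AM1 2.24 to 3.84 and AM3 3.08 to 3.85, and uncovering AM1 -3.52 to -2.36.

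Counts of all genes called moved by over 1.5 times in 17 of 18 comparisons, given here as the count and its range over all alternatives. In V. cinerea they were 73 (2 to 749) for boxed minus sunlight, 4 (0 to 43) for re-exposed minus sunlight, 2035 (605 to 2639) for mature boxed minus sunlight, 1174 (333 to 1624) for mature minus earlier, 3379 (1212 to 4171) for uncovered, 1091 (299 to 1489) for boxed ripening and 3773 (2908 to 4752) for sunlight ripening. In V. labrusca they were 1277 (482 to 1693) for boxed minus sunlight, 898 (165 to 1939) for mature boxed minus sunlight, 9 (1 to 69) for mature minus earlier, 1113 (434 to 1542) for uncovered, 487 (149 to 709) for boxed ripening and 3904 (1942 to 4832) for sunlight ripening, with 0 for re-exposed minus sunlight under every setting run. Between species they were 1792 (330 to 2612) for never uncovered, 0 (0 to 9) for boxed minus sunlight, 262 (15 to 1147) for mature boxed minus sunlight and 571 (105 to 1043) for uncovering.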

Other observations

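UFGT, the enzyme that glucosylates anthocyanidins, and MYBA1, its regulator, stood beside the transport genes in mature berries. UFGT had 1149 and 1119 FPKM in never uncovered V. cinerea, against 66.6 and 67.3 FPKM in sunlight, and 34.8 and 33.1 FPKM in never uncovered V. labrusca, against 127 and 131 FPKM in sunlight. MYBA1 had 112 and 78.4 FPKM in never uncovered V. cinerea, against 14.4 and 36.8 FPKM in sunlight, and 6.98 and 9.66 FPKM in never uncovered V. labrusca, against 33.2 and 56.7 FPKM in sunlight. Both genes thus stood above sunlight libraries in never uncovered V. cinerea and below them in never uncovered V. labrusca. This order was not counted over all genes. V. cinerea sunlight replicate 1 (UFGT 66.6, MYBA1 14.4 FPKM) and V. labrusca sunlight replicate 2 (131 and 56.7 FPKM) do not match their label. The never uncovered V. cinerea libraries held 84.6% of that species' private genes, against 7.69 and 38.5% in sunlight, and the part of this was not tested. The labelled anthocyanin concentration of these never uncovered libraries was 1.085 and 1.973 in V. cinerea, against 5.22 and 6.968 in sunlight, so that the V. cinerea libraries highest in all 3 transport genes at maturity were the lowest in labelled pigment of that stage.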
